A study of Mus musculus with 9 samples.

Results

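The thrombospondin family of the mouse was followed at the RNA level in whole ovaries with and without estrogen receptor beta (ERβ, encoded by Esr2). Its 5 members, Thbs1, Thbs2, Thbs3, Thbs4 and Comp (cartilage oligomeric matrix protein, also called thrombospondin 5), were taken by gene symbol from the 46078 genes of the count table, and each symbol had 1 row. The family was chosen by the low Thbs4 counts in the knockout ovaries and by kinship with Thbs4, so the Thbs4 difference between genotypes is given below as a description, without a test, and the question is how its paralogs compare with it. Poly-A RNA was sequenced from the ovaries of 5 wild-type (WT) and 4 ERβ knockout (ERβKO) mice of the C57BL/6J strain, which per the labels are biological replicates and all untreated. The ERβKO mice carried a germline deletion of exon 3 of Esr2, made by crossing floxed mice with a Rosa26-Cre deleter line, and the WT controls were offspring without Cre. Mice of the study were 4 to 20 weeks old, and ovaries were not collected at a set stage of the estrous cycle, so age and stage may differ among these 9 ovaries. The protocol text shared by all samples also describes a high-fat or control diet for 13 weeks with injections of the ERβ agonist DPN or vehicle, but no label ties an ovary to a diet or an injection.

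Thrombospondins are large secreted glycoproteins that bind calcium and sit between cells and their matrix. Thbs1 and Thbs2 form trimers, carry type 1 (properdin-like) repeats, inhibit the growth of blood vessels through the receptor CD36 and bind CD47, while Thbs3, Thbs4 and Comp form pentamers and lack those repeats. Thbs1 also activates latent TGF-β, Thbs4 is best known from tendon, muscle, heart and nerve, where it organises collagen and adheres cells, and Comp is a matrix protein of cartilage and tendon. In the ovary, thrombospondins have been studied for the vessels that grow and regress around each follicle and corpus luteum.

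The libraries held 12353740 to 18717510 counted fragments. All 10 granulosa, all 10 luteal and all 8 oocyte marker genes checked passed the filter on low counts. The first principal component, which took 35.9% of the variance, placed WT replicate 2 at 9.43, apart from the other WT ovaries (-43.8 to -15.6) and below the ERβKO ovaries (19.4 to 35.4). In log2 normalised counts, that library correlated at 0.973 to 0.982 with the ERβKO ovaries and at 0.969 to 0.976 with the other WT ovaries. Values that rest on that library are therefore also given without it. Esr2 itself, counted over all its exons, ranged from 12.4 to 23.9 FPKM (sequenced fragments scaled to gene length and to library size) in WT and from 10.5 to 23.7 FPKM in ERβKO ovaries, so the gene-level count, which includes the exons that remain, does not check the labels.

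The family is spread over 5 chromosomes of the GRCm38 assembly. Thbs1 lies at chr2:118111876-118127133 on the plus strand, Thbs2 at chr17:14665500-14694262 on the minus strand, and Thbs3 at chr3:89215180-89226837 on the plus strand. Thbs4 lies at chr13:92751590-92794818 on the minus strand and Comp at chr8:70373548-70382065 on the plus strand. The longest annotated coding sequences follow the known split of the family, with 1171 residues for Thbs1 and 1172 for Thbs2 (21 coding exons each) against 956 for Thbs3, 963 for Thbs4 and 755 for Comp. Exons of Thbs1 share 3.42% of their length with an antisense long noncoding RNA (Gm29233), and those of Thbs3 share 6.59% with Mtx1 on the other strand. The library kit keeps the strand, but whether the counting used it is not given in the sources used here. The Thbs1 and Thbs3 values could therefore be too high or too low over these shared stretches.

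The promoters of Thbs4 and Thbs2 are shown because these genes form a contrast on which the comparison turns: Thbs4 was far above its paralog Thbs2 in WT ovaries and level with it in ERβKO ovaries. Thbs3 formed the same contrast with Thbs4, and its window is described below but not printed. Each sequence is the 250 bases before the gene start in RefSeq (GRCm38.p6), read 5′ to 3′ on the strand of the gene. Capitals mark GC boxes (GGGCGG) in Thbs4 and a TATA box (TATAAA) in Thbs2, on either strand.
Thbs4, chr13:92794819-92795068, minus strand: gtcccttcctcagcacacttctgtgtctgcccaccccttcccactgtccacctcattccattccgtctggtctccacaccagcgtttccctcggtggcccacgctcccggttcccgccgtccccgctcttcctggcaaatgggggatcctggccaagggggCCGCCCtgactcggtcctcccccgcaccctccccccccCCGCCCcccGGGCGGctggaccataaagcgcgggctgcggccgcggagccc
Thbs2, chr17:14694263-14694512, minus strand: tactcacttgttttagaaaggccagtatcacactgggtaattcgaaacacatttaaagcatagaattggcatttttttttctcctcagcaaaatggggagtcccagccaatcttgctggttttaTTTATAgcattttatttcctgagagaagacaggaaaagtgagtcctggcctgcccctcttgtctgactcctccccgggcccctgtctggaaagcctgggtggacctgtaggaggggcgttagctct

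The Thbs4 window held 70.8% G and C, against a median of 52.4% over 32851 such windows, and 3 GC boxes, whose first bases lie at -89, -51 and -42 from the gene start. A GC box was present in 32.7% of all windows. The Thbs3 window held 58.8% G and C, 1 GC box at -21 and no TATA box, so a GC box was not particular to Thbs4. The Thbs2 window held 46.8% G and C and 1 TATA box at -126, reading on the other strand, a motif present in 12.4% of all windows. Neither window, nor that of Thbs3, contained the letters of a full estrogen response element (GGTCA and TGACC with any 3 bases between, in 0.0639% of all windows), its single arm (GGTCA, 35.2%), an NR5A site (CAAGGTCA, 1.33%) or a GATA site (GATAA, 22.6%) on either strand. The single arm is part of the full element and of the NR5A site, so these searches overlap. A missing match says only that these letters are not in these 250 bases.

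Thbs4 was the member that separated the genotypes. The WT ovaries, replicates 1 to 5, held 35.4, 27.9, 22.9, 43.0 and 25.7 FPKM of Thbs4, and the ERβKO ovaries, replicates 1 to 4, held 5.56, 4.16, 3.35 and 3.45 FPKM. The groups did not overlap, and the lowest WT ovary stood far above the highest ERβKO ovary. Of the 16722 genes tested, the normalised counts of 7.96% did not overlap between genotypes, 4.04% with ERβKO below and 3.92% with ERβKO above. WT ovaries averaged 31.0 ± 8.15 FPKM (SD, n = 5) and ERβKO ovaries 4.13 ± 1.02 FPKM (SD, n = 4), and later values after ± are SDs over the same ovaries. On the counts, fitted with edgeR, the log2 difference of ERβKO from WT was -2.93 (SE 0.22, 95% interval -3.41 to -2.45), a 7.63-fold lower level. Ordered by log2 fold change, it ranked 30 from the lowest of all tested genes. Thbs4 thereby went from the 89.3 percentile of gene levels in WT ovaries to the 38.5 percentile in ERβKO ovaries. Leaving out any 1 ovary kept its log2 difference between -3.11 and -2.79. It was -2.80 (SE 0.20) among the libraries whose numbers in the labels lie below 200, which leaves out WT replicates 4 and 5, the only ones numbered above. In whole ovaries, fewer cells of a type and less RNA per cell cannot be told apart.

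**Figure D1:**
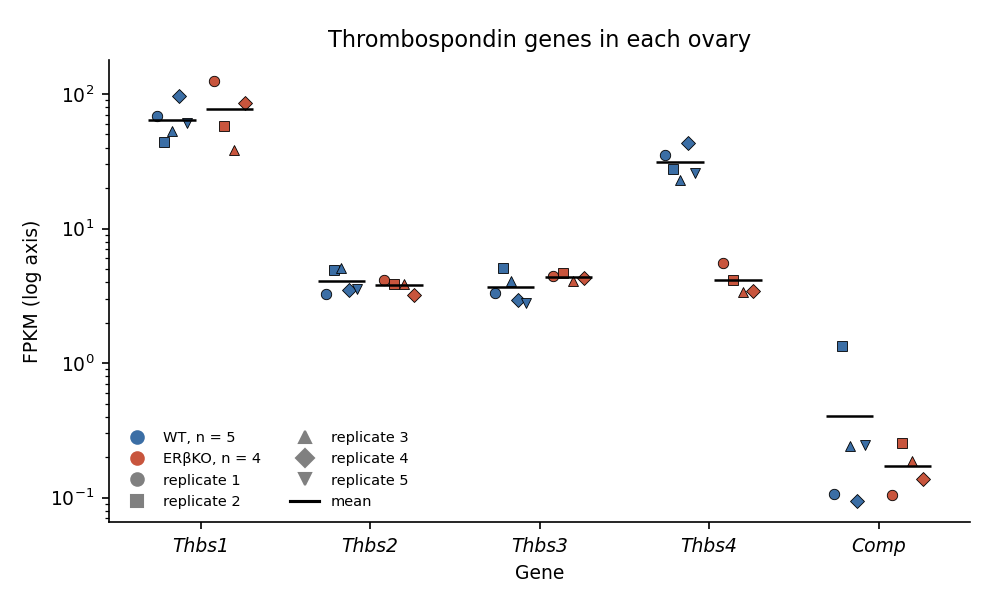
FPKM of each thrombospondin gene (log axis) in each of 5 WT ovaries (blue) and 4 ERβKO ovaries (red), with the replicate number as the symbol and the group mean as a black line. Thbs4 sits between 22.9 and 43.0 FPKM in the WT ovaries and between 3.35 and 5.56 FPKM in ERβKO ovaries, while the other 4 genes overlap between genotypes, and Comp in WT replicate 2 lies above all other Comp values.

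Among the 5 members, 1 met the criteria for a differentially expressed gene (adjusted p under 0.05, a log2 fold change beyond 0.4 in either direction and above 1 FPKM on average in a genotype), where 1.72% of all tested genes did, 0.801% with lower levels in ERβKO ovaries. That 1 was Thbs4, whose contrast chose the family, so nothing is read from the count. None of its 4 paralogs did so in edgeR. At an unadjusted p under 0.05 were 0 of the 4, against 19.8% of all genes tested, so little is read from that count. DESeq2 called 0 of the 3 for which it gave an adjusted p (Comp received none). Over all 27618 genes with a DESeq2 p-value it called 2.91%. That share also counts genes without an adjusted p or below 1 FPKM, which could not be called, so the 2 are not on the same base.

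Thbs1, the prototype of the family and its most abundant member here, varied widely from ovary to ovary within each genotype. It stood at 68.1, 43.8, 53.0, 96.1 and 60.7 FPKM in the WT ovaries and at 125, 58.3, 38.3 and 85.9 FPKM in the ERβKO ovaries. The highest and the lowest of the 9 values were both in ERβKO ovaries, replicates 1 and 3, which differed 3.26-fold, and the WT range lay within theirs. The means were 64.4 ± 19.9 FPKM (SD, n = 5) and 76.9 ± 37.5 FPKM (SD, n = 4). The log2 fold change was 0.22 (SE 0.31, edgeR adjusted p = 0.739), with an interval from -0.47 to 0.91, which spans 0.721 to 1.89 times the WT level. Its sign rested on 1 library, since it was -0.10 without ERβKO replicate 1. That ovary also had the highest summed level of 8 adipocyte markers, at 1587 CPM (counts scaled to library size, without gene length) against 221 to 750 CPM in the other ovaries, while ERβKO replicate 3, the lowest in Thbs1, had the next highest. Markers of platelets, which store thrombospondin 1 protein, were low in both genotypes (7.11 to 12.1 CPM in WT and 9.26 to 11.7 CPM in ERβKO ovaries, summed over 7 genes). The part of adipose tissue or platelets in the Thbs1 values was not tested.

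Thbs2, the other trimeric and antiangiogenic member, was low and even. The 9 ovaries stood at 3.23, 4.93, 5.07, 3.50 and 3.53 FPKM in WT against 4.16, 3.86, 3.84 and 3.23 FPKM in ERβKO ovaries. Of the ERβKO values, 3 lay inside the WT range and that of replicate 4 at its lower end. The log2 fold change was -0.13 (SE 0.15, interval -0.45 to 0.19, edgeR adjusted p = 0.662), which leaves room for a level between 0.731 and 1.14 times that of WT. Leaving out 1 ovary moved it between -0.20 (without WT replicate 1) and -0.04 (without WT replicate 3), and it was -0.05 without WT replicate 2 and -0.07 without ERβKO replicate 4.

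Thbs3, a pentameric member expressed in many tissues and studied in growing bone, was as low as Thbs2. It stood at 3.31, 5.13, 4.05, 2.95 and 2.79 FPKM in WT against 4.45, 4.70, 4.10 and 4.32 FPKM in ERβKO ovaries. The ERβKO ovaries were close together in FPKM, with a coefficient of variation of 5.68% against 26.3% in WT. All lay below WT replicate 2 but above the other WT ovaries. In normalised counts, ERβKO replicate 3 (17.78 CPM) lay just below WT replicate 3 (17.81 CPM). The log2 fold change was 0.20 (SE 0.16, interval -0.15 to 0.55, edgeR adjusted p = 0.523). Without WT replicate 2 it was 0.35 (adjusted p = 0.113), and among the libraries numbered below 200 it was 0.02 (adjusted p = 0.965).

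Comp, the cartilage member, was near the limit of detection except in 1 ovary. Its counts were 5, 84, 13, 7 and 11 in the WT libraries and 6, 17, 10 and 8 in the ERβKO libraries, or 0.107, 1.34, 0.242, 0.0943 and 0.247 FPKM and 0.105, 0.256, 0.188 and 0.138 FPKM. WT replicate 2 was the only ovary above 1 FPKM, and every other WT value lay within the ERβKO range or just beside it. The log2 fold change of -1.26 (SE 0.76, interval -2.93 to 0.42, edgeR adjusted p = 0.387) came from that library, as the value without it was 0.00. The group means, 0.406 and 0.172 FPKM, were below 1 in both genotypes, so Comp could not have met the criteria at any p.

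**Figure D2:**
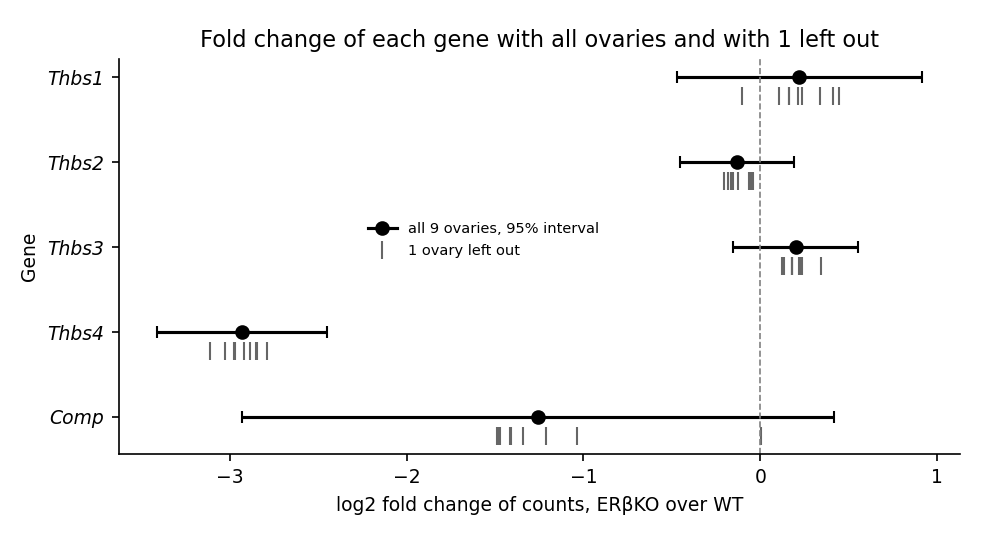
Log2 fold change of counts (ERβKO over WT, edgeR) of each thrombospondin gene with all 9 ovaries (points, 95% interval) and with 1 ovary at a time left out (ticks). The interval of Thbs4 lies from -3.41 to -2.45, those of its paralogs all include 0, and for Comp the tick at 0.00 is the fit without WT replicate 2.

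FPKM values are per length, so the members can be ordered by level within an ovary. In all 5 WT ovaries Thbs1 was highest and Thbs4 next, with Thbs1 at 2.06 times Thbs4 (ratio of geometric means). Thbs2 and Thbs3 followed and could not be separated, Thbs2 being the higher of the pair in 3 of 5 WT ovaries, and Comp was last in each. Thbs4 exceeded Thbs2 by 7.58-fold and Thbs3 by 8.49-fold. In ERβKO ovaries Thbs1 was again first in all 4, at 17.3 times Thbs4, and Comp last, but the 3 genes between them lay within 3.23 to 5.56 FPKM. Thbs4 was above Thbs2 in 3 of those 4 ovaries and above Thbs3 in 1, so the order of these neighbours was not fixed beyond their spread. Thbs3 was above Thbs2 in all 4.

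The make-up of the family changed accordingly, as a description of the same values. Thbs4 held 26.8% to 33.5% of the summed FPKM of the 5 genes in WT ovaries and 3.55% to 6.72% in ERβKO ovaries. Thbs1 held 52.8% to 66.0% in WT and 77.0% to 89.7% in ERβKO ovaries, again without overlap, although its own level overlapped. The summed FPKM itself overlapped widely, from 83.1 to 146 in WT and from 49.8 to 139 in ERβKO ovaries. Thbs2 stayed between 2.40% and 7.72% and Thbs3 between 2.03% and 8.23% over all ovaries.

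**Figure D3:**
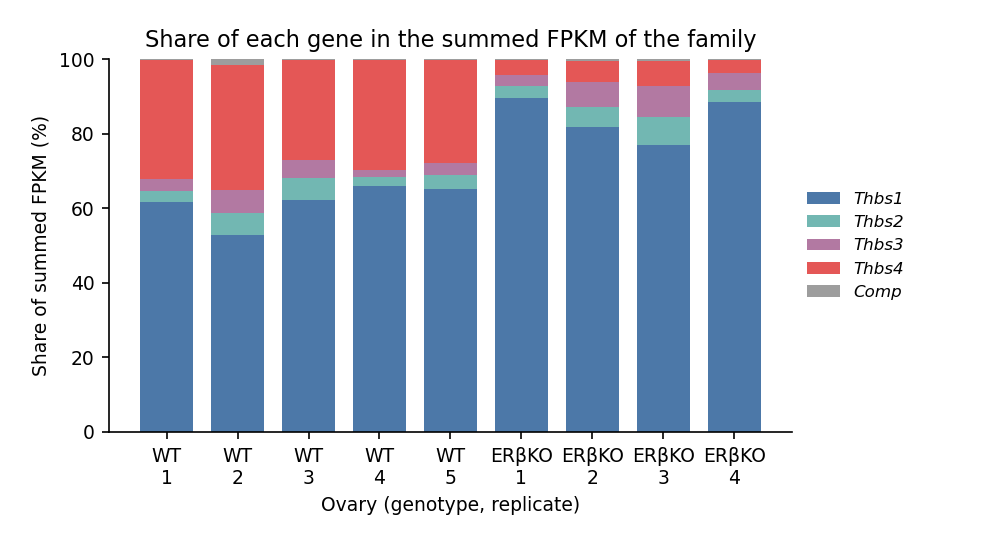
Share of each gene (%) in the summed FPKM of the 5 thrombospondin genes, 1 bar per ovary, named by genotype and replicate. The Thbs4 share is 26.8% to 33.5% in the WT bars and 3.55% to 6.72% in the ERβKO bars, where Thbs1 takes 77.0% to 89.7%.

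Within each ovary, the log2 ratio of Thbs4 to Thbs1 was -1.04 ± 0.25 in WT (SD, n = 5) and -4.11 ± 0.54 in ERβKO (SD, n = 4), a difference of -3.07. The corresponding differences were -2.81 for the ratio to Thbs2 and -3.20 for the ratio to Thbs3. None of these 3 ratios overlapped between genotypes, so the low Thbs4 of the ERβKO ovaries was seen relative to each of these paralogs in the same library. The ratio to Comp was 6.89 ± 1.71 in WT and 4.55 ± 0.74 in ERβKO, and it overlapped, because WT replicate 2 with its high Comp stood at 4.37. Every one of these differences is carried by Thbs4 and is no independent evidence of its direction.

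Other genes were taken as 6 lists, 121 genes in all, of which 107 passed the filter. Of these lists, 4 hold genes that thrombospondins bind, activate or engage, and 2 hold proteins that share a domain or a class with them. Of these, 5 were differentially expressed (4.67%, against 1.72% of all genes), 1 higher and 4 lower in ERβKO ovaries. The lists were chosen with earlier results of these data known, so nothing is read from the higher share. Genes below 1 FPKM, which could not be called, also count in the 1.72%. The median log2 fold change of the 107 was 0.00, as it was over all genes tested. No test was made of any list as a whole. An unadjusted p under 0.05 was found for 19.8% of all genes tested, and the counts at that level below are read against it. Among the libraries numbered below 200, none of the 5 calls held, with edgeR adjusted p from 0.0750 to 0.142 and each gene in its direction.

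Among 21 receptors and surface partners, 3 fell, 0 rose and the other 18 did not meet the criteria, with a median log2 fold change of -0.10 and 13 at an unadjusted p under 0.05. DESeq2 called 5, adding Cd36 and Itga4 (an integrin subunit, lower in ERβKO ovaries with a DESeq2 log2 fold change of -0.50 and adjusted p = 0.0168). Lrp8, the apolipoprotein E receptor 2 that binds thrombospondin 1, stood at 23.8, 3.61, 3.35, 13.4 and 23.1 FPKM in WT against 1.43, 1.04, 2.51 and 1.04 FPKM in ERβKO ovaries. The groups were apart, but the WT ovaries fell into 3 high and 2 low values, the low ones close to ERβKO replicate 3. Its log2 fold change was -3.08 (SE 0.59, edgeR adjusted p = 0.0317), of the same size as that of Thbs4 but with a wider error, and its call was kept in 2 of the 9 fits that left out 1 ovary, those without WT replicate 2 or 3. In the other fits it was lost, and over all 9 the log2 fold change lay between -3.32 and -2.70. Limma on FPKM did not call it (adjusted p = 0.0801 and 0.0630 with pseudocounts of 1 and 0.1). Sdc1 (syndecan 1, a heparan sulfate proteoglycan that binds the amino-terminal end of thrombospondin) ranged from 26.3 to 42.3 FPKM in WT, median 32.8, and from 10.8 to 22.6 FPKM in ERβKO ovaries. Its log2 fold change was -1.09 (SE 0.22, adjusted p = 0.0345), kept in 4 of those 9 fits and lost without WT replicate 1 or 5 or ERβKO replicate 1, 2 or 4, at log2 values of -1.32 to -0.94 over all 9. Cacna2d1, the calcium channel subunit that serves as a neuronal thrombospondin receptor, was 12.9 ± 1.90 FPKM in WT against 10.2 ± 0.66 FPKM in ERβKO ovaries, with a log2 fold change of -0.51 (SE 0.07, adjusted p = 0.0117). Among those 9 fits it lost its call only without ERβKO replicate 2, at a log2 fold change of -0.48 (edgeR adjusted p = 0.0528). It was smaller on the FPKM scale, where limma gave -0.30 and -0.32 with pseudocounts of 1 and 0.1 (adjusted p = 0.147 and 0.144), short of both thresholds. The most abundant gene of the list, Calr (calreticulin, which carries the signal of thrombospondin to LRP1), was level at 427 ± 48.3 and 407 ± 38.9 FPKM (adjusted p = 0.589), and it is also the most abundant gene of the ATF6 list. CD36 and CD47, the classical receptors, were looked up after the values were known. Cd36 was 22.7 ± 5.10 FPKM in WT against 42.9 ± 18.4 FPKM in ERβKO ovaries, with overlapping groups (log2 fold change 0.90, edgeR adjusted p = 0.101, and DESeq2 adjusted p = 0.0159). The log2 fold changes of the 8 adipocyte markers, from cells that also express Cd36, were all positive, with a median of 1.40, though edgeR called 0 of them (adjusted p 0.0780 to 0.245, all 8 at an unadjusted p under 0.05) and DESeq2 3, and their sums overlapped between genotypes. The part of adipose tissue in the Cd36 values was not tested. Cd47 was 18.6 ± 0.71 and 19.4 ± 2.00 FPKM (adjusted p = 0.554).

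Among 14 tested growth factors and proteases (of 19) that thrombospondins bind or activate, 1 fell and 13 did not meet the criteria, with a median log2 fold change of -0.08 and 2 at an unadjusted p under 0.05. DESeq2 also called Vwf (von Willebrand factor, which thrombospondin 1 binds), higher in ERβKO ovaries at a log2 value of 0.53 (DESeq2 adjusted p = 0.00355, edgeR adjusted p = 0.0522). Ltbp1 encodes a protein that holds latent TGF-β, the growth factor released by thrombospondin 1, in the matrix. It stood at 51.5, 55.0, 23.3, 51.9 and 75.3 FPKM in WT against 13.6, 15.0, 21.1 and 24.4 FPKM in ERβKO ovaries. WT replicate 3 lay below ERβKO replicate 4 in FPKM, although the ranges of the normalised counts did not overlap. The log2 fold change was -1.51 (SE 0.29, edgeR adjusted p = 0.0323), and 2 of the 9 fits with 1 ovary left out, those without WT replicate 2 or 3, kept the call, with log2 values of -1.69 to -1.31 over all 9. Limma on FPKM did not call it (adjusted p = 0.0548 and 0.0537). Vegfa, the vascular growth factor and the most abundant gene of this list, was 50.5 ± 11.1 FPKM in WT against 43.4 ± 4.67 FPKM in ERβKO ovaries (log2 fold change -0.26, adjusted p = 0.380).

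Of 22 tested matrix partners (of 27), such as fibronectin, fibrillar collagens and proteoglycans, 0 were called by edgeR and 0 by DESeq2, with 7 at an unadjusted p under 0.05 and a median log2 fold change of -0.02. Dcn (decorin, a collagen-binding proteoglycan), the most abundant, was 357 ± 40.2 FPKM in WT against 456 ± 33.7 FPKM in ERβKO ovaries, and its groups were apart in normalised counts (log2 fold change 0.32, edgeR adjusted p = 0.0672). Acan (aggrecan), named after its values were seen, had an adjusted p of 0.0460 at a log2 fold change of 1.34 and missed the criteria only by its level, 0.401 FPKM in WT against 0.999 FPKM in ERβKO ovaries. Of the 20 genes of the ATF6 arm of the endoplasmic reticulum stress response, which thrombospondin 4 is known to engage inside cells, 0 were called by either tool and 0 had an unadjusted p under 0.05. Their log2 fold changes lay between -0.39 and 0.16, with a median of 0.03.

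Other proteins with type 1 repeats gave 1 call among 26 tested (of 29), with a median log2 fold change of 0.03 and 6 at an unadjusted p under 0.05. Rspo1 (R-spondin 1, which strengthens Wnt signals and is known for its part in ovary differentiation) was 9.46 ± 0.74 FPKM in WT against 13.3 ± 0.72 FPKM in ERβKO ovaries. Every ERβKO value, from 12.7 to 14.3 FPKM, lay above every WT value, from 8.63 to 10.3 FPKM. Its log2 fold change was 0.47 (SE 0.08, edgeR adjusted p = 0.0226), close to the fold threshold, and 5 of the 9 fits with 1 ovary left out kept it. It was lost without WT replicate 1 or ERβKO replicate 2, 3 or 4, at log2 values of 0.43 to 0.50 over all 9. The most abundant gene of that list, Sema5a, an axon guidance protein with such repeats, was 20.9 ± 3.37 and 21.8 ± 2.04 FPKM (adjusted p = 0.898). Thsd7b, named after its values were seen, had the lowest log2 fold change of the list, -2.04 (edgeR adjusted p = 0.0957, DESeq2 adjusted p = 0.00385). Its level was below 1 FPKM in both genotypes, 0.875 in WT against 0.216 in ERβKO ovaries, so it could not have met the criteria. The CCN matricellular proteins gave 0 calls in edgeR among 5 tested (of 6), with 2 at an unadjusted p under 0.05, and DESeq2 called 1 (Wisp1). Their most abundant gene, Ctgf, was 19.8 ± 7.89 FPKM in WT against 28.7 ± 16.5 FPKM in ERβKO ovaries (log2 fold change 0.50, edgeR adjusted p = 0.556). Wisp2, also named after its values were seen, was 11.3 ± 5.40 against 2.69 ± 3.12 FPKM, with overlapping groups (log2 fold change -2.13, edgeR adjusted p = 0.169).

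**Figure D4:**
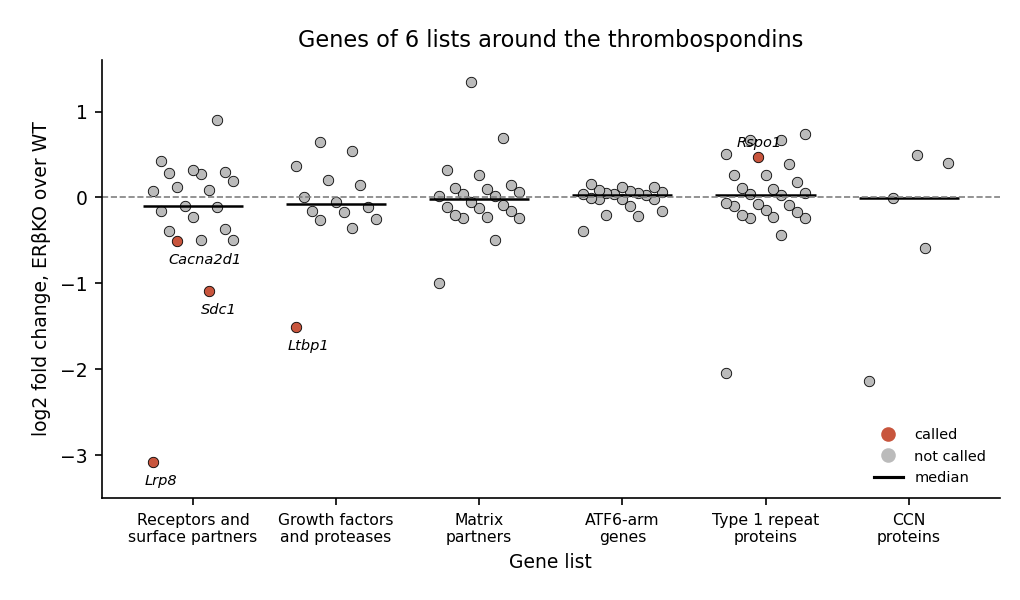
Log2 fold change (ERβKO over WT, edgeR) of each tested gene in 6 lists around the thrombospondins, spread sideways for legibility, with differentially expressed genes in red and named, and the list median as a line. The 5 red points are Lrp8, Sdc1, Cacna2d1, Ltbp1 and Rspo1, the medians lie between -0.10 and 0.03, and the points of the ATF6 list span -0.39 to 0.16.

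Markers of ovarian cell types were read beside these values. Their calls are read against the 1.72% of all tested genes that edgeR called and the 2.91% that DESeq2 called. Both shares also count genes below 1 FPKM, which could not be called. The summed level of 8 theca markers was 1535 to 2172 CPM in WT and 2524 to 5015 CPM in ERβKO ovaries, without overlap. That sum was carried by Aldh1a1 (521 ± 85.7 against 1092 ± 233 FPKM), the 1 theca marker called among 7 tested, and by Cyp17a1 (48.4 ± 48.8 against 246 ± 217 FPKM, edgeR adjusted p = 0.205). The median log2 fold change of the 7 was 0.12, and Insl3, below the filter, was 0.639 ± 0.72 FPKM in WT against 0.0189 ± 0.038 FPKM in ERβKO ovaries. The sums of the granulosa markers (1447 to 1810 CPM in WT, 1671 to 2356 CPM in ERβKO ovaries) and of the luteal markers (8936 to 21112 CPM and 7136 to 11835 CPM) overlapped. Log2 fold changes were positive for 10 of 10 granulosa markers, of which edgeR called 1 (3 at an unadjusted p under 0.05) and DESeq2 called 3. They were negative for 9 of 10 luteal markers, of which edgeR called 0 (5 at an unadjusted p under 0.05) and DESeq2 called 3. Sums of stromal, endothelial, mural, macrophage, oocyte, adipocyte and oviduct epithelium markers also overlapped. EdgeR called 1 gene among them, 1 of 8 mural markers, Pdgfrb, which fell (log2 fold change -0.59, edgeR adjusted p = 0.0487). DESeq2 called 1 of 8 stromal, 2 of 8 mural and 3 of 8 adipocyte markers and 0 in the other lists of this group. As Thbs4 and Comp are abundant in tendon, cartilage and muscle, markers of these were also read. The summed level of 8 tendon and cartilage markers was higher in ERβKO ovaries, at 95.5 to 113 CPM against 76.5 to 84.8 CPM in WT. Log2 fold changes were positive for 5 of the 6 tested. EdgeR called 0 of the 6, with 5 at an unadjusted p under 0.05, Scx among them, and DESeq2 called 1. That call is not read as going with the higher sum, since Scx, with the largest change of the 6, was lower. The tendon marker Tnmd, below the filter, had 0 counts in every WT library and 1 in each ERβKO library. The tendon transcription factor Scx went the other way, from 4.33 ± 1.99 FPKM in WT to 1.38 ± 0.57 FPKM in ERβKO ovaries, with groups apart in normalised counts (log2 fold change -1.70, edgeR adjusted p = 0.0594). Skeletal muscle markers summed to 20.7 to 28.9 CPM in WT and 25.5 to 28.3 CPM in ERβKO ovaries, and Myh4 had 0 counts in all but 1 library. The part of these cell types in the Thbs4 values was not tested.

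The genes whose pattern over the 9 ovaries was most like that of a member were found by the root mean square difference of centred log2 CPM, among 14178 genes with a mean above 1 FPKM in a genotype. For Thbs4, whose log2 CPM had an SD of 1.57, the nearest was Slc38a3, a glutamine transporter, at a difference of 0.55. It stood at 15.1, 9.99, 3.18, 10.5 and 11.8 FPKM in WT against 1.89, 0.499, 0.692 and 0.875 FPKM in ERβKO ovaries. Rnf152 (a lysosomal ubiquitin ligase, 0.63), Fbn2 (the microfibril protein fibrillin 2, 0.67), Podnl1 (a small leucine-rich repeat protein, 0.69) and the predicted gene Gm12648 (0.73) came next. Fbn2 was 8.17 ± 2.00 FPKM in WT against 2.67 ± 0.83 FPKM in ERβKO ovaries, Rnf152 1.72 ± 0.77 and 0.353 ± 0.11 FPKM, and Podnl1 1.59 ± 0.18 and 0.382 ± 0.19 FPKM. All 5 were lower in ERβKO ovaries, which the search itself brings about. WT replicate 3, the lowest WT ovary in Thbs4, was also the lowest in Slc38a3, Rnf152, Fbn2 and Podnl1, but WT replicate 4, the highest in Thbs4, was the highest in none of the 5.

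**Figure D5:**
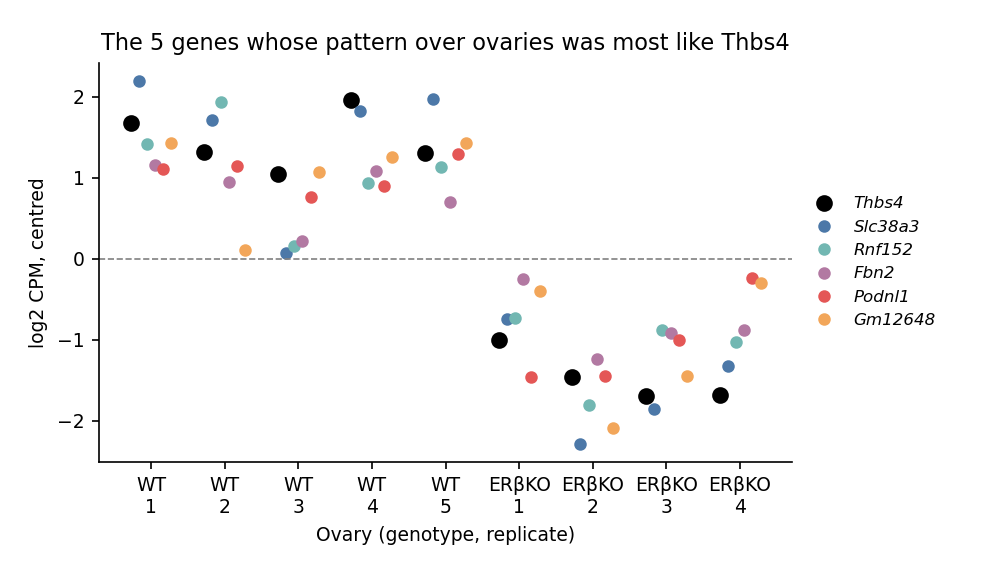
Log2 CPM of Thbs4 (black) and of the 5 genes with the most similar pattern, each centred on the mean of its genotype means, in 5 WT and 4 ERβKO ovaries. All 6 genes lie above 0 in the WT ovaries and below 0 in the ERβKO ovaries, and 4 of the 5 have their lowest WT value, as Thbs4 does, in replicate 3.

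Thbs1, with an SD of 0.54, had far closer neighbours. Pik3ip1, an inhibitor of phosphoinositide 3-kinase, differed by 0.15 and Cables1, a partner of cyclin-dependent kinases, by 0.16. Cables1 ranged from 7.80 to 18.5 FPKM over the WT ovaries and from 6.66 to 20.8 FPKM over the ERβKO ovaries. As with Thbs1, the highest value was in ERβKO replicate 1 and the lowest in ERβKO replicate 3. For Comp, with an SD of 1.01, the nearest were the predicted gene Gm1821 (0.52) and the chemokine Ccl2 (0.57), both highest in WT replicate 2. The Gm1821 values are uncertain, since its FPKM of 101 to 128 does not match its 2.90 to 10.4 CPM. Thbs2 and Thbs3 varied too little (SD 0.23 and 0.27, under the 0.3 set) for such a search.

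The genes next to each member on its chromosome were read after the values of the members were known. Serinc5, 39643 bases below Thbs4, was 26.5 ± 2.25 FPKM in WT against 26.2 ± 0.41 FPKM in ERβKO ovaries, and Mtx3, 49942 bases above it, was 9.61 ± 0.93 and 8.34 ± 0.88 FPKM (edgeR adjusted p = 0.823 and 0.196). Mtx1, which overlaps Thbs3 on the other strand, was 24.3 ± 1.41 and 24.3 ± 1.48 FPKM. The edgeR adjusted p of the 11 neighbours of the 5 members lay between 0.0788 and 0.979. The largest log2 fold change among them was that of Smoc2 beside Thbs2, a calcium-binding matrix protein, at 1.07 (45.0 ± 15.7 FPKM in WT against 95.1 ± 34.9 FPKM in ERβKO ovaries, edgeR adjusted p = 0.0788).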

How the data were processed

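Per the labels and the study's methods, poly-A RNA (TruSeq Stranded mRNA) was sequenced as 150-base paired reads, trimmed and aligned to mm10/GRCm38 with STAR. The authors deposited raw gene counts from featureCounts for 9 libraries in 1 table and FPKM from StringTie per library. Processing notes also name bcl2fastq 2.20.0.422, CASAVA and Trim Galore. No column was left unmapped. Members and lists were chosen with earlier results of these data known.

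The count test was edgeR 4.0.16 in R 4.3.3 (TMM, filterByExpr, quasi-likelihood test, Benjamini-Hochberg over all 16722 genes kept), on all 9 libraries without covariates. The study's thresholds were kept (adjusted p 0.05, absolute log2 fold change 0.4, mean FPKM above 1), but its tool, DESeq2 (1.42.0 here), served as an alternative. Others were upper-quartile and DESeq2 size factors, other count filters, the replicate number as a block, limma 3.58.1 on log2 FPKM with pseudocounts of 1 and 0.1, and each library left out. Log2 FPKM ratios used a pseudocount of 0.01. CPM are TMM-normalised. The fits were tested on simulated data. Named were all members, of each list the called genes (at most 4) and the most abundant one, the 5 genes most like Thbs4 and the 2 most like any paralog whose SD was above 0.3. Gene models came from GENCODE M21, in which 83.2% of shared genes have the deposited coordinates, and promoter windows from RefSeq, which matched 3 of the 5 members.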

Additional observations from a re-analysis of the deposited data

Results flagged for a closer look

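Of 74 groups of ovaries checked for a single value far from the rest (gap over range above Dixon's critical value), 7 had one, where chance gives about 1 in 20. In WT replicate 2, Comp stood at 5.01 CPM against 0.414 to 0.854 CPM in the other WT ovaries, Gm1821 at 10.4 CPM against 2.90 to 4.40 CPM, and Ccl2 at 5.43 CPM against 1.13 to 2.15 CPM. Gm1821 and Ccl2 were picked for their likeness to Comp, so these 3 are not separate observations. Ccl2 was also high in ERβKO replicate 2, at 2.62 CPM against 1.09 to 1.30 CPM. Calr stood at 1524 CPM in WT replicate 3 against 1165 to 1249 CPM in the other WT ovaries. The summed granulosa markers reached 1810 CPM in WT replicate 5 against 1447 to 1522 CPM, and the summed platelet markers 11.7 CPM in ERβKO replicate 3 against 9.26 to 9.46 CPM. No Thbs1, Thbs2, Thbs3 or Thbs4 value was among them.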

How the results depend on the processing

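The log2 difference of Thbs4, given as a description, ranged from -3.11 to -2.62 over 18 alternatives. The log2 fold change of Thbs1 was -0.10 to 0.45 with 1 ovary left out, negative without ERβKO replicate 1. That of Comp was -1.49 to 0.00, positive (0.0027) without WT replicate 2, and that of Sema5a was -0.038 to 0.121, negative without WT replicate 3. The number of differentially expressed genes, 287, became 805 with DESeq2 and 51 in the libraries numbered below 200, and 60 (without ERβKO replicate 2) to 919 (without WT replicate 2) with 1 ovary left out, moving by more than 1.5 times unless that ovary was WT replicate 3 or ERβKO replicate 1. The list genes called, 5, became 9 with DESeq2, 0 below 200, 2 with limma at either pseudocount, and 0 (without ERβKO replicate 2) to 8 (without WT replicate 2 or 3) with 1 ovary left out, each of which moved it by more than 1.5 times. Fewer samples enter the fits that leave out libraries, and otherwise the cause was not tested. With the replicate number as a block the counts were 155 and 3, and Thbs4 was -2.96. Of the 5 list genes, Cacna2d1 and Sdc1 met the criteria under the block, while Lrp8 (edgeR adjusted p = 0.0915), Ltbp1 (0.0955) and Rspo1 (0.0699) did not. The remaining call under the block was a gene of the type 1 repeat list that the main fit did not call. The deviations of same-numbered ovaries correlated at 0.0948, 0.130, -0.0427 and -0.0105, and none of these ovaries correlated best with its own number. As far as the labels go, they share only a number. Differences in log2 ratio of Thbs4 to its paralogs stayed negative under all 13 alternatives each. Comp was removed by a minimum of 10 counts in every library and by limma's FPKM filter, so it has no value there. Few counts limit Comp, and 5 against 4 ovaries leave intervals of the paralogs as wide as given.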
